A study of Mus musculus with 8 samples.

Results

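Tensin 4 (Tns4) was followed together with receptor tyrosine kinases of the EGF and MET families, among them receptors it is known to bind, and with ligands of the EGF receptor, 10 genes in all out of 56980 gene identifiers counted. They were chosen by name: Tns4, the receptor tyrosine kinases Egfr, Erbb2, Erbb3 and Met, and the EGF family ligands Areg, Ereg, Hbegf, Tgfa and Btc. All 10 symbols matched 1 identifier each, and all 10 passed the filter on low counts. RNA came from scrapings of jejunal mucosa of male mice, sequenced as polyadenylated RNA with 75 bp single-end reads, from 4 FFA2 fl/fl mice (floxed controls) and 4 Adipoq-F2-KO mice, for 8 libraries in all. Both genotypes carry floxed alleles of the short-chain fatty acid receptor FFA2 (gene Ffar2), and only the Adipoq-F2-KO mice carry the Adiponectin-Cre transgene, whose promoter is active in adipocytes. The littermates shared cages from birth, ate chow until 12 weeks of age, and then received a Western diet with 10% fructooligosaccharides for 2 weeks in thermoneutral housing. The recombinase is therefore not driven in the epithelium, the main part of the tissue that was sequenced, and the comparison asks whether gene expression in the jejunum differs when FFA2 is deleted in adipocytes.

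Tensins are adaptor proteins of integrin adhesion sites. Tns4, also called CTEN, is the short member of the family: it keeps the SH2 and PTB domains that bind phosphorylated receptors and integrin tails but lacks the actin-binding part of the other tensins, and it has been described as binding MET and as slowing the degradation of activated EGFR. EGFR, ERBB2 and ERBB3 signal as dimers, ERBB2 without a ligand of its own and ERBB3 with little kinase activity of its own, while MET is the receptor of hepatocyte growth factor. In the intestinal crypt, EGF family ligands support stem cell division and repair, and the receptors act largely through the RAS-ERK and PI3K-AKT cascades, whose feedback inhibitors are themselves induced by the signal.

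Ffar2, the gene deleted in adipocytes, was close to the limit of detection in this tissue, with raw counts of 12, 18, 2 and 11 in floxed libraries 1 to 4 and 13, 12, 6 and 3 in Adipoq-F2-KO libraries 1 to 4. It was not called different between genotypes (DESeq2, adjusted p = 0.9998), and its counts in this tissue do not bear on the deletion in adipocytes. Total counts per library ranged from 6007654 to 21712776, and floxed library 3 and Adipoq-F2-KO libraries 3 and 4 held fewer than 10000000. The summed normalized count of 7 epithelial genes (Epcam, Cdh1, Krt8, Krt18, Krt19, Cldn7 and Vil1) varied 1.32-fold over the 8 libraries, from 70857 to 93214, so that all of them held abundant epithelial RNA. The sum of 8 smooth muscle genes varied 110-fold, from 187 to 20627 in floxed controls and from 388 to 7114 in Adipoq-F2-KO mice, and the sum of 4 adipocyte genes varied 91.5-fold, with its 3 highest values in the 3 libraries of low depth. In such bulk RNA, fewer cells of a type and less RNA per cell cannot be told apart.

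Tns4 was the member that differed most between the genotypes, and its fitted level was 1.76-fold higher in Adipoq-F2-KO jejunum, a difference that was not called after adjustment over all genes. The gene lies at chr11:99065678-99089306 on the minus strand of GRCm38 and shares no exonic base with another annotated gene. Its raw counts were 801, 1106, 242 and 410 in floxed libraries 1 to 4 and 1340, 1444, 303 and 406 in Adipoq-F2-KO libraries 1 to 4. Divided by the library size factor, these became normalized counts of 485, 583, 506 and 317 in the floxed controls and 1058, 895, 607 and 763 in the Adipoq-F2-KO mice. All 4 Adipoq-F2-KO libraries lay above all 4 floxed libraries, although Adipoq-F2-KO library 3 exceeded floxed library 2 only narrowly, and floxed library 4 was the lowest of the 8. Among all tested genes, 2.12% had groups that did not overlap in either direction.

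Floxed controls averaged 473 ± 112 (SD, n = 4), and the Adipoq-F2-KO mice averaged 831 ± 192 (SD, n = 4). On the log2 scale this was a difference of 0.82 (SE 0.22, 95% interval 0.39 to 1.25). After adjustment over all 15986 tested genes the difference was not called (DESeq2, adjusted p = 0.201, unadjusted p = 0.000189). Over 16 alternative analyses the direction stayed the same and the adjusted p ranged from 0.0106 to 1.00, below 0.05 in 5 of them. It was 0.0390 without floxed library 2, 0.0365 without floxed library 3 and 0.0404 without Adipoq-F2-KO library 3 (DESeq2). The call therefore depended on the analysis. Tns4 was followed because the study, which had made this same comparison, named it, so its p-value is not taken as independent evidence.

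**Figure D1:**
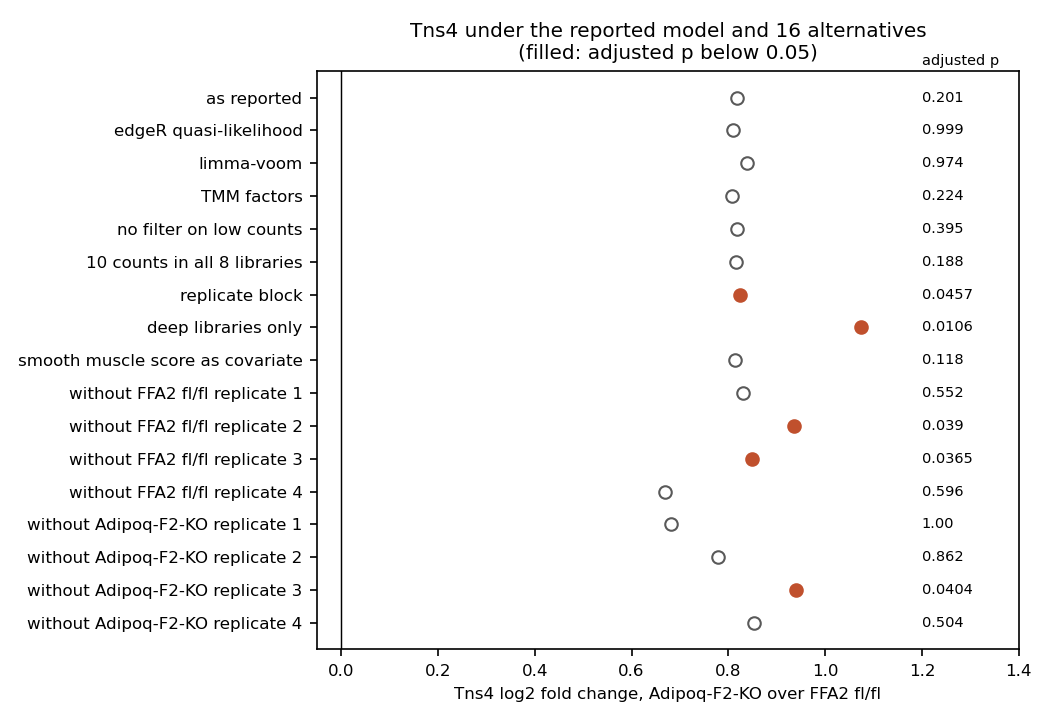
Tns4 log2 fold change of Adipoq-F2-KO over FFA2 fl/fl (horizontal axis) in the reported DESeq2 fit and 16 alternatives (vertical axis), with the adjusted p of each at the right and filled points where it is below 0.05. "Deep libraries only" keeps the 5 libraries with at least 10000000 counts, floxed 1, 2 and 4 and Adipoq-F2-KO 1 and 2. All values lie between 0.67 and 1.07, to the right of 0, and 5 of 16 alternatives are filled.

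Depth and tissue content were looked at beside this difference. Among the 5 libraries with at least 10000000 counts, the log2 fold change was 1.07 (DESeq2, adjusted p = 0.0106). That fit called 78 genes in all, against 6 in the reported fit. It kept floxed libraries 1, 2 and 4 and only Adipoq-F2-KO libraries 1 and 2. These 2 Adipoq-F2-KO libraries had the highest Tns4 counts of all (1058 and 895). Whether depth or the libraries kept set the larger value was not tested. The 3 shallow libraries gave normalized counts of 506 in the floxed control and 607 and 763 in the Adipoq-F2-KO mice, too few samples for a test. With the smooth muscle score as a covariate the log2 fold change was 0.81 (DESeq2, adjusted p = 0.118). The lowest Tns4 value, in floxed library 4, came with the lowest summed counts of crypt stem cell genes (1193, against 1388 to 1908 in the other 7 libraries), Paneth cell genes (4352, against 6951 to 13731) and villus tip genes (30593). Other libraries did not keep this order. The highest crypt stem sum, in floxed library 1, came with 485 Tns4 counts, and the sum of 1388, in Adipoq-F2-KO library 2, with 895. Of 4 tested crypt stem genes, 1 was higher and 3 lower in the fit. The part of crypt content in the result was not tested.

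Taken relative to the epithelium itself, the 2 genotypes overlapped. Per 10000 summed counts of the epithelial genes, Tns4 had 64.0, 82.3, 54.3 and 36.0 counts in floxed libraries 1 to 4 and 119, 104, 74.7 and 94.4 in Adipoq-F2-KO libraries 1 to 4. Floxed library 2 thus lay above Adipoq-F2-KO library 3. The mean difference on the log2 scale was 0.77, and an exact two-sided permutation test over the 70 assignments of the libraries gave p = 0.0571, where the smallest p this design allows is 0.0286. With villus enterocyte genes (Alpi, Fabp1, Fabp2, Sis, Lct, Apoa1 and Apoa4) as the denominator the difference was 0.75, and with the library total it was 0.81, each again with an exact permutation p = 0.0571.

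**Figure D2:**
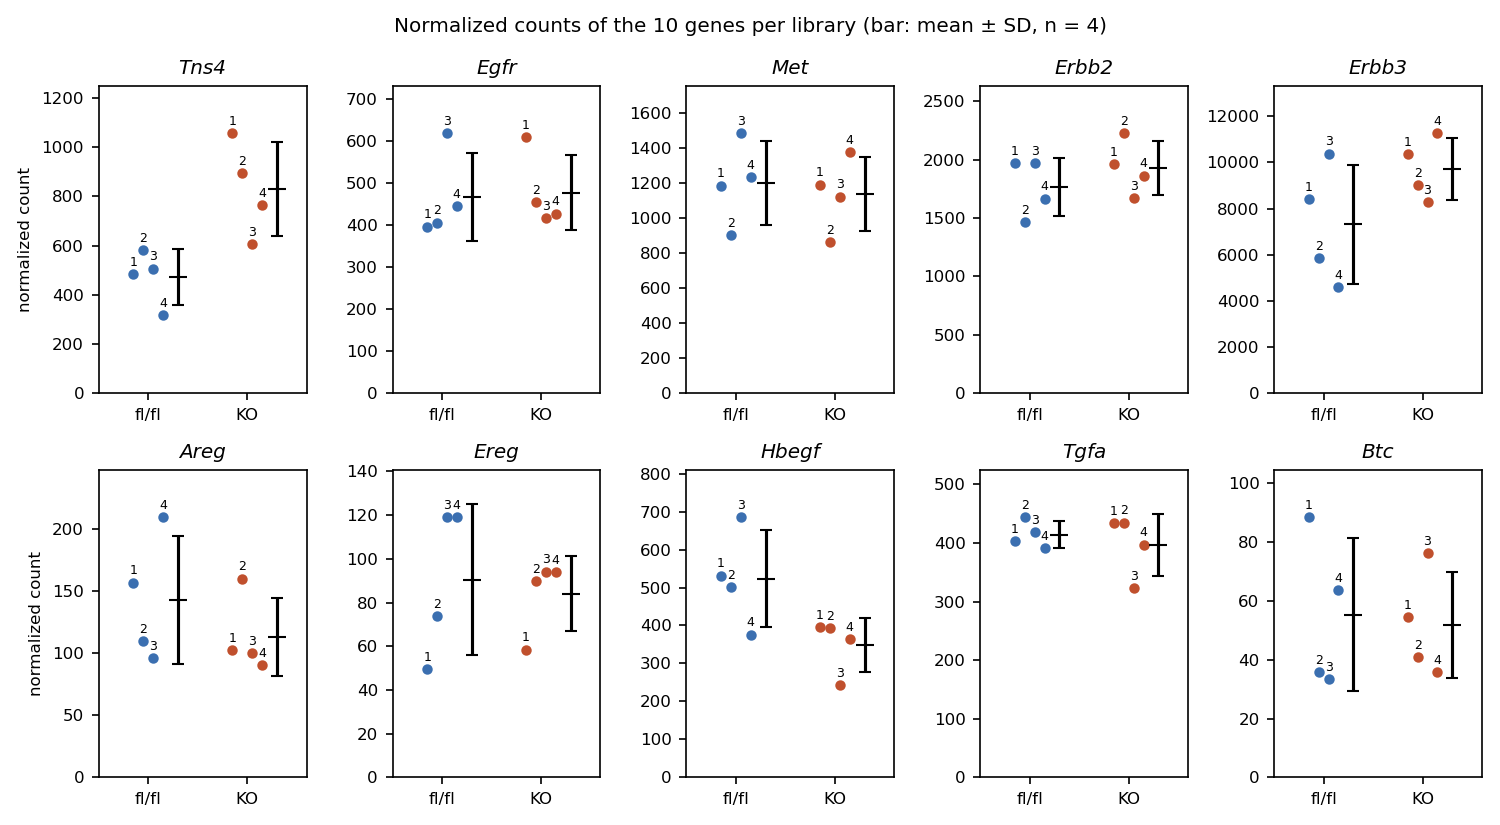
Normalized count (vertical axes, starting at 0) of each of the 10 genes in the FFA2 fl/fl (fl/fl, blue) and Adipoq-F2-KO (KO, orange) libraries, with replicate numbers above the points and the mean ± SD (n = 4) at the right of each group. Only Tns4 has groups that do not overlap: its floxed libraries lie between 317 and 583 and its Adipoq-F2-KO libraries between 607 and 1058.

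No other member separated the genotypes, and no member passed the adjusted threshold. In the DESeq2 fit 0 of 10 members had an adjusted p below 0.05, beside 6 of 15986 tested genes (0.0375%). Both other tools, edgeR's quasi-likelihood test and limma-voom, also called 0 of 10. At an unadjusted p below 0.05, DESeq2, edgeR and limma-voom each marked 2 of 10 members, which in the DESeq2 fit were Tns4 (higher) and Hbegf (lower), beside 3.03% of all tested genes. The fitted values were higher in Adipoq-F2-KO jejunum for 4 members and lower for 6, with a median log2 fold change of -0.06 against -0.01 over all tested genes. That median ran from -0.10 to 0.044 as each library was left out, so it had no stable direction.

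**Figure D3:**
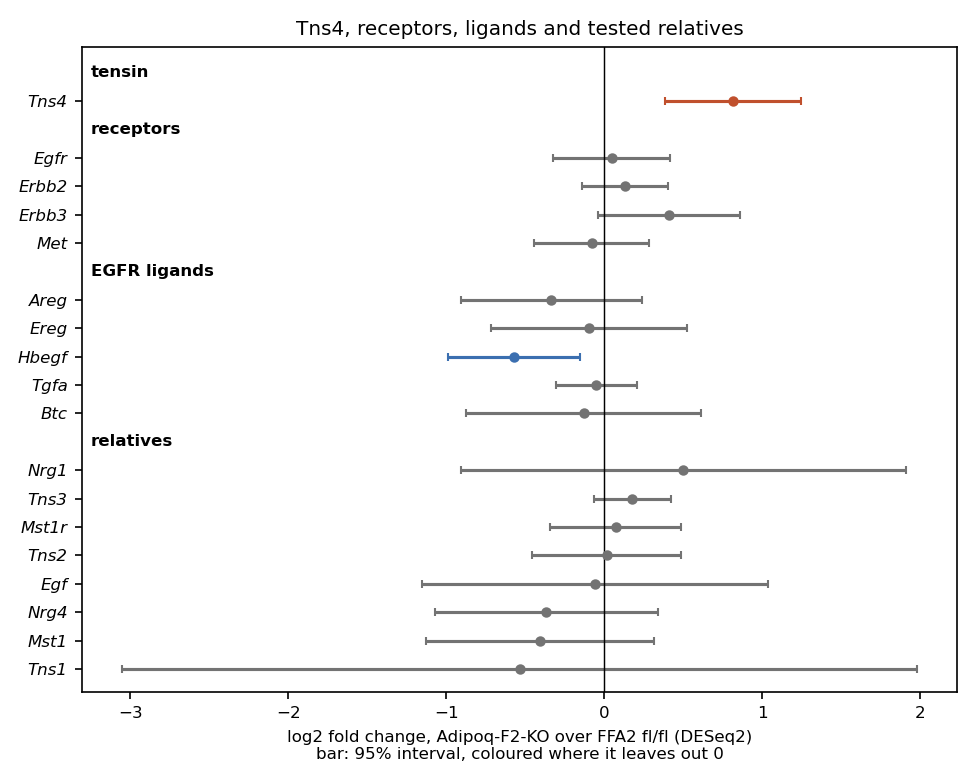
DESeq2 log2 fold change of Adipoq-F2-KO over FFA2 fl/fl (horizontal axis) with its 95% interval for the 10 members, by role, and for the 8 tested relatives. The interval leaves out 0 for 2 members, Tns4 (0.39 to 1.25, orange) and Hbegf (-0.99 to -0.15, blue), and for none of the relatives.

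Of the receptors, Erbb3 had by far the highest level and the largest difference, which was not called. Erbb3, the ERBB2 partner that binds neuregulins and recruits PI3K, had normalized counts of 8413, 5856, 10381 and 4604 in floxed libraries 1 to 4 and 10364, 8997, 8281 and 11273 in Adipoq-F2-KO libraries 1 to 4. Every Adipoq-F2-KO library lay above the floxed mean of 7313 ± 2587 (SD, n = 4), but floxed libraries 1 and 3 lay inside the Adipoq-F2-KO range. Its log2 fold change was 0.41, with a 95% interval of -0.04 to 0.86 (DESeq2, adjusted p = 0.9998), and was 0.63 without floxed library 3 and 0.25 without floxed library 4. The spread among the floxed controls was wider than among the Adipoq-F2-KO mice, whose mean was 9729 ± 1344 (SD, n = 4).

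Erbb2, the shared dimer partner of the family, had normalized counts of 1968, 1465, 1970 and 1664 in floxed libraries 1 to 4 and 1959, 2228, 1670 and 1863 in Adipoq-F2-KO libraries 1 to 4. The ranges overlapped between 1670 and 1970, with floxed libraries 2 and 4 below that stretch and Adipoq-F2-KO library 2 above it, and the log2 fold change was 0.13 with an interval of -0.14 to 0.40. Erbb2 lies on chromosome 11 as Tns4 does, 628 kb away, and 9 of its exonic bases are shared with Mien1 on the other strand.

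Egfr, the receptor of all 5 ligands, had 396, 405, 619 and 445 normalized counts in the floxed controls and 609, 455, 416 and 427 in the Adipoq-F2-KO mice. One library of each genotype, floxed 3 and Adipoq-F2-KO 1, stood above the other 6, and the log2 fold change was 0.05 with an interval of -0.32 to 0.42. Met, the receptor of hepatocyte growth factor, had 1184, 902, 1485 and 1231 normalized counts in the floxed controls and 1190, 861, 1121 and 1374 in the Adipoq-F2-KO mice. Its library 2 was the lowest in each genotype, and the log2 fold change was -0.08 with an interval of -0.44 to 0.28. For Egfr and Met these intervals leave out, in either direction, a difference of the size fitted for Tns4, 0.82 on the log2 scale.

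Among the ligands, Hbegf had the largest fitted difference, towards lower counts in Adipoq-F2-KO jejunum, and it was not called. Heparin-binding EGF-like growth factor is made as a membrane-bound precursor, released by ADAM proteases, and binds EGFR and ERBB4. Its normalized counts were 531, 500, 686 and 376 in floxed libraries 1 to 4 and 395, 392, 242 and 365 in Adipoq-F2-KO libraries 1 to 4. Floxed library 4 fell within the Adipoq-F2-KO range, so the groups overlapped, while all 4 Adipoq-F2-KO libraries lay below the floxed mean of 523 ± 127 (SD, n = 4). The difference of -0.57 on the log2 scale (SE 0.21) was not called (DESeq2, adjusted p = 0.9998, unadjusted p = 0.00724). None of the 16 alternatives called it, and its log2 fold change ranged from -0.70 to -0.26 over them, the latter in the 5 deep libraries.

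Areg, the amphiregulin gene, had 157, 110, 96.2 and 210 normalized counts in floxed libraries 1 to 4 and 103, 160, 100.1 and 90.2 in Adipoq-F2-KO libraries 1 to 4. Its log2 fold change was -0.33 with an interval of -0.90 to 0.24, and the groups overlapped. Ereg, which encodes epiregulin, had 49.7, 73.8, 119 and 119 normalized counts in the floxed controls and 58.4, 89.9, 94.1 and 94.0 in the Adipoq-F2-KO mice, so that the lowest value of each genotype was in library 1. Ereg, Areg and Btc are neighbours on chromosome 5, with 46.0 kb between Ereg and Areg and 209 kb between Areg and Btc, yet in floxed library 1 Btc had its highest and Ereg its lowest count.

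Tgfa, the transforming growth factor alpha gene, was the steadiest of the members, with a coefficient of variation of 9.58% over the 8 libraries. Its normalized counts were 403, 444, 418 and 391 in the floxed controls and 434, 435, 322 and 397 in the Adipoq-F2-KO mice, and its log2 fold change of -0.05 had an interval of -0.30 to 0.21. Btc, the betacellulin gene, was among the most variable, with a coefficient of variation of 38.8% and counts of 88.4, 35.8, 33.5 and 63.5 in the floxed controls and 54.5, 40.9, 76.1 and 35.7 in the Adipoq-F2-KO mice. The log2 fold changes of Btc (-0.13, interval -0.88 to 0.62) and Ereg (-0.09, interval -0.72 to 0.53) were the least certain of the members. At raw counts as low as 16 for Btc and 47 for Ereg in a library, a difference of the size and direction fitted for Hbegf (-0.57) still lay inside both intervals.

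Compared per kilobase of exon, the levels of the 10 genes fell into a steep order. Erbb3 had 1416 normalized counts per kb on average over the 8 libraries, Erbb2 355, Met 152, Tns4 126, Areg 105, Hbegf 90.2, Tgfa 62.5, Egfr 41.6, Ereg 21.1 and Btc 11.8. The ranges of Erbb3 and Erbb2, of Erbb2 and Met, and of Egfr and Ereg did not overlap. Met and Tns4, Tns4 and Areg, and Areg and Hbegf overlapped and kept their order in only 6, 6 and 5 of 8 libraries, so these neighbours were not told apart over all libraries. By genotype, Tns4 averaged 91.5 per kb in the floxed group, where it lay below Met in 4 of 4 libraries, below Hbegf in 3 and below Areg in 2. In the Adipoq-F2-KO group it averaged 161 per kb and lay above Areg and Hbegf in 4 of 4 libraries and above Met in 2 of 4. These orders within a genotype were not tested. Hbegf and Tgfa, and Tgfa and Egfr, also had overlapping ranges but kept their order in 8 of 8 libraries, and Ereg and Btc in 7 of 8. Egfr itself was the least abundant of the 4 receptors, and its highest library (54.7 per kb) lay below the lowest library of Met (112 per kb).

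Of the summed level of the 4 receptors per kb, Erbb3 made up 68.3% ± 6.1 (SD, n = 4) in the floxed group and 74.1% ± 1.9 (SD, n = 4) in the Adipoq-F2-KO group. The share of Met was 7.84%, 8.34%, 8.22% and 12.5% in floxed libraries 1 to 4 and 6.72%, 5.40%, 7.77% and 7.31% in Adipoq-F2-KO libraries 1 to 4. All 4 Adipoq-F2-KO shares of Met lay below all 4 floxed shares, though floxed library 1 and Adipoq-F2-KO library 3 were close. The shares of the 4 receptors are not independent of each other, no test was run on them, and the level of Met itself overlapped.

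**Figure D4:**
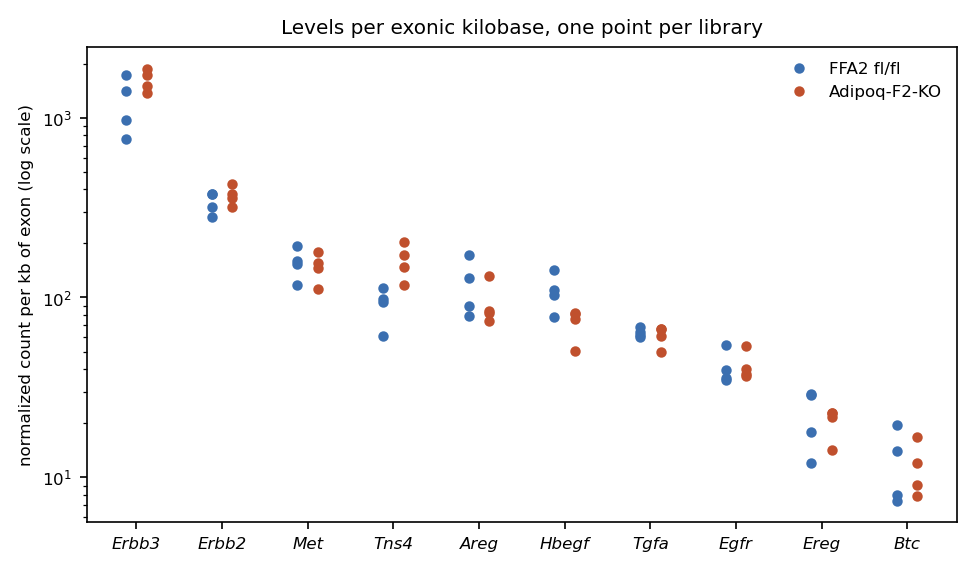
Normalized count per kb of exon (vertical axis, log scale) of the 10 genes in order of their mean, with one point per library for FFA2 fl/fl (blue) and Adipoq-F2-KO (orange). Erbb3 at 1416 and Btc at 11.8 on average are the ends of the range, and the neighbours Met, Tns4, Areg and Hbegf overlap.

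Among the closest relatives of the members no difference was called. Of 11 relatives, 8 were tested, and 0 had an adjusted p or an unadjusted p below 0.05 in the DESeq2 fit. Over all tested genes these shares were 0.0375% and 3.03%. A count of 0 of 8 therefore does not show that the relatives are unchanged. Among the tensins, Tns3 averaged 1485 ± 222 normalized counts (SD, n = 4) in the floxed group and 1678 ± 52 (SD, n = 4) in the Adipoq-F2-KO group, with a log2 fold change of 0.18 (interval -0.06 to 0.42). Tns2 had a log2 fold change of 0.02. Tns1 ran from 31.7 in floxed library 4 to 1903 in floxed library 3, the libraries with the second lowest and the highest smooth muscle sum, and its log2 fold change of -0.53 had an interval of -3.05 to 1.98. The direction of Tns1 turned in 5 of 16 alternatives, reaching 1.17 without floxed library 3.

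Per kb of exon, Tns3 (141) and Tns4 (126) were on average the leading tensins of the tissue, and Tns2 (44.9) and Tns1 (32.6) were lower. This order did not hold in every library: in floxed library 3 the share of Tns1 (27.5%) exceeded that of Tns4. Tns4 made up 32.9%, 36.3%, 22.7% and 30.5% of the summed tensin level in floxed libraries 1 to 4 and 51.0%, 45.1%, 35.6% and 35.6% in Adipoq-F2-KO libraries 1 to 4. Floxed library 2 overlapped the Adipoq-F2-KO range in this share.

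The other relatives looked at were scarce or overlapped between genotypes. Erbb4, the fourth EGF family receptor, had at most 1 count in any library, Epgn (epigen) at most 1, and the MET ligand Hgf between 2 and 14, and none of these 3 was tested. Egf was near its floor, with a mean of 8.13 normalized counts in floxed controls and 8.15 in Adipoq-F2-KO mice. The neuregulin genes Nrg1 (log2 fold change 0.50, interval -0.91 to 1.91) and Nrg4 (-0.36, interval -1.07 to 0.34) did not differ beyond their spread, and 368 exonic bases of Nrg4 are shared with Fbxo22 on the other strand. Nrg1 took the other sign without Adipoq-F2-KO library 4 (-0.041) and in the 5 deep libraries (-0.74). Mst1r, the MET-related receptor, had a log2 fold change of 0.07 and its ligand Mst1 one of -0.41, the latter sharing 195 exonic bases with Rnf123.

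The relatives and the genes that release ligands, tether tensins, carry the signal or respond to it made up 100 further pathway genes, of which 94 were tested. In the DESeq2 fit 0 of 94 had an adjusted p below 0.05 and 6 had an unadjusted p below 0.05 (1 higher, 5 lower), beside 3.03% of all tested genes. By edgeR and by limma-voom the counts were 0 and 5 each. The median log2 fold change of the 94 was -0.0023, beside -0.01 over all tested genes.

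Besides the relatives, 4 further lists held no gene with an unadjusted DESeq2 p below 0.05, and 0 with an adjusted one. Over all tested genes these shares were 3.03% and 0.0375%. Counts of 0 in lists this short therefore do not show that the genes are unchanged. The 10 genes of ligand shedding and HGF activation, such as the sheddases Adam10 and Adam17 and the matriptase gene St14, lay between -0.13 and 0.16 on the log2 scale. The 16 tested tensin partners and focal adhesion genes lay between -0.70 (Fermt2) and 0.37 (Tln2), a wider range than the other 3 lists. Fermt2 took the other sign without floxed library 3 (1.04), where it had 272 normalized counts against 6.06 to 64.8 in the other floxed libraries and where the smooth muscle sum was highest, and Tln2 was 0.039 without Adipoq-F2-KO library 4. The list's median of -0.04 ran from -0.078 to 0.060 as each library was left out, with the integrin subunit gene Itgb1 at 0.10 and the kinase gene Ptk2 (FAK) at 0.01. Ilk was not tested at 1 to 4 counts per library, and 2106 of its exonic bases are shared with Taf10. The 18 adaptor and RAS-ERK kinase genes lay between -0.24 and 0.14 with a median of 0.03, which also changed sign as each library was left out (-0.011 to 0.052), and the 12 genes of PI3K-AKT, STAT3, SRC and phospholipase C gamma between -0.06 and 0.19 with a median of 0.07.

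The feedback inhibitors and turnover factors of the receptors mostly had lower fitted values in Adipoq-F2-KO jejunum, and 0 of them were called. Of the 17 genes, 3 were higher and 14 lower in the DESeq2 fit, with a median log2 fold change of -0.15, beside 8233 lower of all 15986 tested genes, and 2 (Errfi1 and Spred2) had an unadjusted p below 0.05, again beside 3.03% of all tested genes. The median was -0.09 without floxed library 4 and ranged to -0.20 as other libraries were left out. Errfi1 (also called MIG6), which binds and inhibits the kinase domains of EGFR and ERBB2, had 2580, 2446, 1236 and 1908 normalized counts in floxed libraries 1 to 4 and 1492, 1092, 1395 and 1372 in Adipoq-F2-KO libraries 1 to 4. Floxed library 3 was as low as the Adipoq-F2-KO libraries and set the overlap. The fitted log2 difference was -0.61, SE 0.22 (DESeq2, adjusted p = 0.995, unadjusted p = 0.00442). Without floxed library 3 it was -0.79 (DESeq2, adjusted p = 0.000165), where 103 genes were called in all. Over the 16 alternatives the adjusted p of Errfi1 ranged from 0.000165 to 1.00 and was below 0.05 in 2. These were that fit and the 5 deep libraries, and both leave out floxed library 3.

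Spred2, an inhibitor of RAS-ERK activation, had 775, 708, 715 and 794 normalized counts in the floxed controls and 683, 570, 653 and 603 in the Adipoq-F2-KO mice. All 4 Adipoq-F2-KO libraries lay below all 4 floxed libraries, by a small margin, beside 2.12% of all tested genes without overlap in either direction. The log2 fold change was -0.26 (DESeq2, adjusted p = 0.9998, unadjusted p = 0.0144). None of the 16 alternatives called it. The ubiquitin ligase genes Cbl, Cblb and Cblc, which mark activated EGFR and MET for degradation, had log2 fold changes of -0.13, -0.19 and -0.08, and the sprouty gene Spry2 one of -0.32, all with intervals that held 0. On the higher side, Socs3, a suppressor of cytokine signalling, ran from 576 to 780.0 normalized counts in the floxed controls and from 561 to 2149 in the Adipoq-F2-KO mice. Adipoq-F2-KO libraries 2 and 4 were high and the other 2 lay near the lowest floxed values, with a log2 fold change of 0.73 (interval -0.19 to 1.65), which was 0.15 without Adipoq-F2-KO library 4. Spry1 was at 0.10 and Usp8 at 0.03.

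Genes induced by ERK held the smallest unadjusted p of the pathway, and 0 of them were called. Of 15 such genes 13 were tested (Etv4 and Fosl1 were too low), and 3 were higher and 10 lower in the fit. Of all 15986 tested genes, 8233 were lower. The median log2 fold change of the ERK target genes was -0.38, beside -0.01 over all tested genes. At an unadjusted DESeq2 p below 0.05 there were 1 higher and 3 lower, beside the same 3.03%. The median was -0.10 without floxed library 3 and -0.11 with limma-voom, so its size rested on that library and on the tool.

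Epha2, a receptor tyrosine kinase of the Eph family that is transcribed downstream of ERK, came closest to a call. Its normalized counts were 1828, 1537, 1759 and 2195 in floxed libraries 1 to 4 and 1225, 1391, 1075 and 968 in Adipoq-F2-KO libraries 1 to 4. The groups did not overlap, as was so in either direction for 2.12% of all tested genes. The fitted log2 difference was -0.65, SE 0.15 (DESeq2, adjusted p = 0.0592). Over the 16 alternatives its adjusted p ranged from 0.00624 to 0.999 and was below 0.05 in 5. These included the fits without floxed library 2 (0.0122), without floxed library 3 (0.0153) and without Adipoq-F2-KO library 2 (0.00624).

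Ier3, an immediate early gene, also had groups that did not overlap, with 46.0, 49.5, 56.5 and 53.4 normalized counts in the floxed controls and 29.2, 39.1, 34.0 and 32.0 in the Adipoq-F2-KO mice. Groups without overlap were found for 3 of the 94 further pathway genes, all lower, beside 2.12% of all tested genes in either direction. Its log2 fold change was -0.59 (DESeq2, adjusted p = 0.9998, unadjusted p = 0.0224). Phlda1 had 138, 40.1, 98.3 and 94.4 in the floxed controls and 52.1, 42.2, 38.0 and 60.2 in the Adipoq-F2-KO mice, where floxed library 2 was as low as the Adipoq-F2-KO libraries. Its log2 fold change of -0.94 was not called (DESeq2, adjusted p = 0.9998), but was -1.21 without floxed library 2 (DESeq2, adjusted p = 0.0282), the only one of 16 alternatives that called it (adjusted p from 0.0282 to 1.00 over them).

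Not all ERK target genes lay on the lower side. Ccnd1, the cyclin D1 gene, which also shares 1100 exonic bases with LTO1 on the other strand, had 125, 138, 291 and 132 normalized counts in the floxed controls and 256, 199, 260.3 and 282 in the Adipoq-F2-KO mice. Floxed library 3 was the highest of all 8 and the other 3 floxed libraries were the lowest. The log2 fold change was 0.57 (DESeq2, adjusted p = 0.9998). Without floxed library 3 it was 0.91 (DESeq2, adjusted p = 0.000165), in a fit that called 103 genes. Over the 16 alternatives the adjusted p of Ccnd1 ranged from 0.000165 to 1.00, below 0.05 in 2 of them. These were that fit and the 5 deep libraries, and both leave out floxed library 3. The dual specificity phosphatase genes Dusp5 and Dusp6, which switch off ERK, had log2 fold changes of -0.10 and -0.14, and Myc one of 0.30, all with intervals that held 0.

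**Figure D5:**
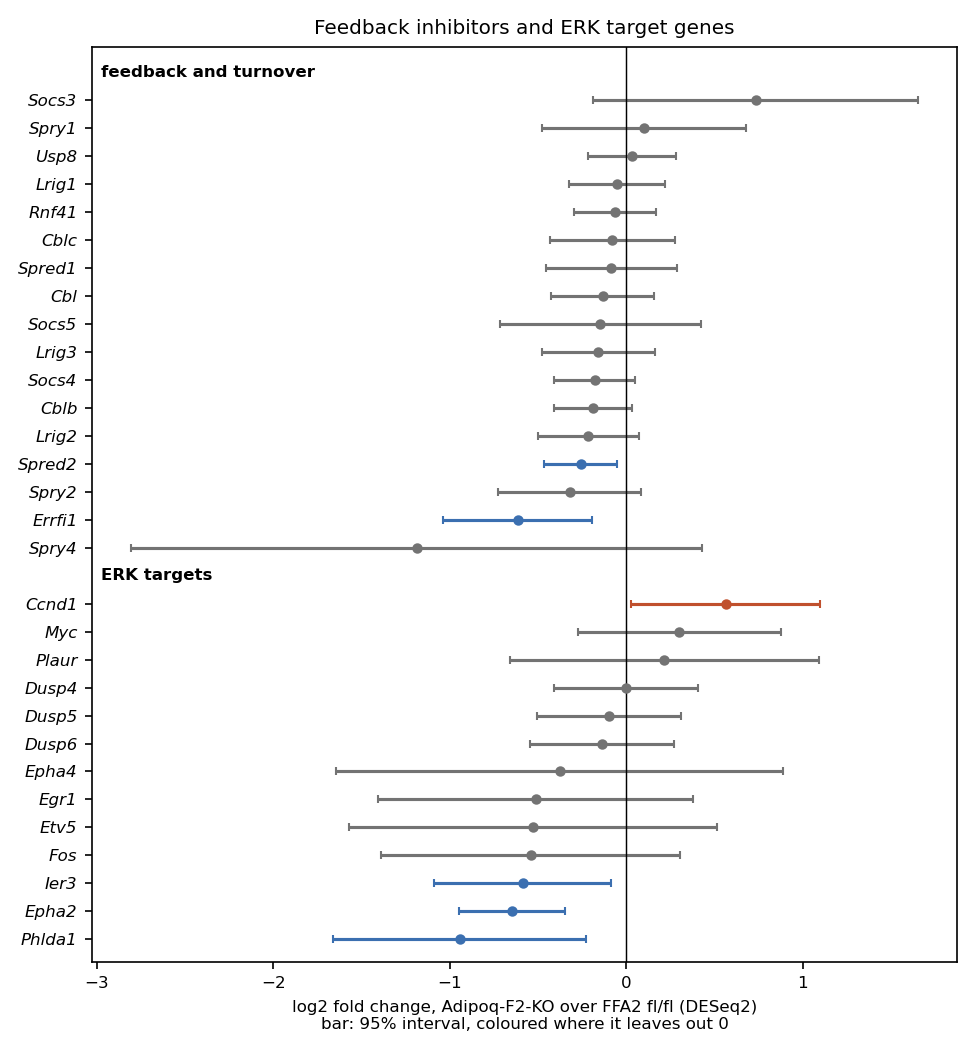
DESeq2 log2 fold change of Adipoq-F2-KO over FFA2 fl/fl (horizontal axis) with its 95% interval for the 17 tested feedback and turnover genes and the 13 tested ERK target genes. Intervals leave out 0 on the lower side for Errfi1, Spred2, Epha2, Phlda1 and Ier3 (blue) and on the higher side for Ccnd1 (orange). Left of 0 lie 14 of 17 and 10 of 13 points, beside 8233 of all 15986 tested genes.

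Across the 8 libraries, the genes whose levels moved most nearly with Tns4 were Elf1 (Pearson's r = 0.98), Pip4p1 (0.97), 2310001H17Rik (0.95), Mpp1 (0.94) and Copb2 (0.94), out of 10168 genes compared on log2 normalized counts. Elf1 encodes an ETS family transcription factor, Copb2 a subunit of the COPI vesicle coat, Mpp1 a membrane scaffold protein, and 2310001H17Rik is a long non-coding RNA. Centred on each genotype's mean, their correlations were 0.97, 0.92, 0.87, 0.88 and 0.96, and all share the depth and tissue content of the same 8 libraries. The 5 genes were picked as the highest of 10168 in these libraries, so high values follow in part from that choice. Elf1 had normalized counts of 1175, 1286, 1228 and 1006 in the floxed controls and 1605, 1609, 1235 and 1427 in the Adipoq-F2-KO mice, with a log2 fold change of 0.33. All but Copb2 share exonic bases with a gene on the other strand, from 45 bases in Mpp1 to 877 in Pip4p1. Of the other members, Erbb3 was nearest to Tns4 (r = 0.70, exceeded by 354 genes) and Areg farthest (r = -0.51). Centred on each genotype's mean the order changed: Tgfa (0.82) and Hbegf (0.80) came before Erbb3 (0.50), and Ereg (-0.56) was farthest, with Areg at -0.39.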

How the data were processed

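Jejunal mucosa RNA of 4 FFA2 fl/fl and 4 Adipoq-F2-KO mice was analysed. The deposited values are raw read counts per Ensembl gene, made by the authors with Trimmomatic, STAR and featureCounts; the labels name GRCm38 and mm10. Versions, annotation release and strand setting are not given in the sources used here, so genes overlapping another gene are uncertain. Of 56980 identifiers, 52073 were paired with a symbol, and positions and exonic lengths came from GENCODE M21 (GRCm38), which held 52125. No sequences are shown.

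A gene needed 10 counts in each of 4 or more libraries to be tested, which left 15986, and DESeq2 1.42.0 in R 4.3.3 (genotype only, default size factors, two-sided Wald test, Benjamini-Hochberg adjustment over all tested genes, called below 0.05) was applied. DESeq2 gave no adjusted p for 8 of these. Normalized counts are counts divided by the size factor, and correlations used log2(normalized count + 1). edgeR 4.0.16 (quasi-likelihood), limma 3.58.1 (voom), other scalings and filters, and omission of each library were alternatives. The fits were tested on simulated data. P-values measure the spread between these mice, 1 library each, and cover counting error and that spread only, as reads carried no molecular identifiers; at or under 3 counts a gene was not told from absence. The 12 library pairs within a genotype differed by 5.16 to 50.3 chi-square units per gene, so none was a duplicate. Replicate numbers come from the sample titles; the deposited documents are numbered differently, and those numbers were not used. Libraries of the 2 genotypes with the same title number deviated together in only some pairs (correlations 0.54, 0.29, 0.01 and -0.42), so numbers were not taken as pairs.

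The members and lists were chosen with earlier results of these data known. Named were the members, their relatives, up to 3 genes per other list with the smallest unadjusted p below 0.05, any called gene, and the 5 genes with a mean normalized count of at least 50 most correlated with Tns4. Ccnd1 and the other genes given as examples of a list were added after their values were seen.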

Additional observations from a re-analysis of the deposited data

Results flagged for a closer look

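In 34 groups of 4 libraries checked for a sample far from the other 3, 2 held one, and chance alone flags about 5% of such groups. The groups were normalized counts of the 10 members, Errfi1, Spred2, Epha2, Phlda1, Ier3 and Ccnd1, and the Tns4 to epithelial ratio. The relatives and the genes most like Tns4 were not checked. Ereg had 58.4 normalized counts in Adipoq-F2-KO library 1, far below the 89.9 to 94.1 of the other 3 Adipoq-F2-KO libraries. Ccnd1 had 291 normalized counts in floxed library 3, far above the 125 to 138 of the other 3 floxed libraries.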

How the results depend on the processing

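The log2 fold change of Tns4 kept its direction in all 16 alternatives. It was 0.82 with the replicate block (DESeq2, adjusted p = 0.0457), which was not taken as a pairing, and 1.07 in the 5 deep libraries (DESeq2, adjusted p = 0.0106), and it ranged from 0.67 to 0.94 as each library was left out in turn, with adjusted p from 0.0365 to 1.00. The number of members called was 1 (Tns4) with the replicate block and in the deep libraries, and 0 to 1 as each library was left out. The number of all genes called, 6 as reported, was 2 with edgeR, 1 with limma-voom, 3 with no filter on low counts, 11 with the replicate block, 78 in the deep libraries, and 2 to 103 as each library was left out, 103 of them without floxed library 3, and the cause was not tested. Relative to epithelial genes, Tns4 differed by 0.77 with the replicate block (exact sign-flip permutation p = 0.125, the smallest it can give) and by 0.55 to 0.95 as each library was left out. Erbb2, Erbb3, Areg, Hbegf, Tns3, Nrg4 and Mst1 kept their direction in every alternative that gave a value, but not their size: as each library was left out, Erbb2 ranged from 0.049 to 0.19, Erbb3 from 0.25 to 0.63, Areg from -0.56 to -0.089, Hbegf from -0.70 to -0.42, Tns3 from 0.096 to 0.24, Nrg4 from -0.68 to -0.021 and Mst1 from -0.70 to -0.27. Over all 16 alternatives Erbb2 reached 0.30 and Nrg4 -1.01, beyond these ranges. Direction was also kept by Errfi1, Spred2, Epha2, Phlda1, Ier3, Ccnd1 and the 5 genes most like Tns4.

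Fold changes near 0, and larger ones such as those of Tns1, Nrg1 and Fermt2 (-0.53, 0.50 and -0.70 as reported), took the other sign in some alternatives. Ereg was 0.011 with limma-voom. With the replicate block Tns1 was 0.22 and Egf 0.0045. In the deep libraries Tgfa was 0.068, Tns1 0.38, Tns2 -0.015 and Nrg1 -0.74. Egfr kept its sign there but was 0.35, against 0.05 as reported. With the smooth muscle covariate Btc was 0.067, Tns1 0.086, Tns2 -0.023 and Egf 0.10, and with limma-voom Tns1 was 0.73. As each library was left out, Egfr ranged from -0.091 to 0.21, Met from -0.20 to 0.037, Ereg from -0.30 to 0.091, Tgfa from -0.10 to 0.033, Btc from -0.35 to 0.19, Tns1 from -1.28 to 1.17, Tns2 from -0.13 to 0.23, Egf from -0.21 to 0.11, Nrg1 from -0.041 to 1.34 and Mst1r from -0.079 to 0.24. Egf, Nrg1 and Mst1 had too few counts for some alternatives.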

Other observations

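Marker lists of other cell types were read beside these genes. Of 7 proliferation genes, 5 were higher and 2 lower in Adipoq-F2-KO jejunum, and 2 had an unadjusted DESeq2 p below 0.05 (beside 3.03% of all tested genes) and 0 an adjusted one. Their summed normalized count was 1332 to 1621 in floxed controls and 1544 to 1816 in Adipoq-F2-KO mice, overlapping between genotypes. All 5 macrophage genes were higher in the fit, with a median log2 fold change of 0.61, and 0 had an unadjusted DESeq2 p below 0.05. Their sum was lowest in floxed library 4 (75.8), the library with the least Tns4, and ran from 187 to 365 in the other 7. All 8 smooth muscle genes were lower in the fit, with a median log2 fold change of -0.94 and 0 below an unadjusted DESeq2 p of 0.05. Villus tip genes summed to 30593 to 40677 in floxed controls and 36663 to 41446 in Adipoq-F2-KO mice. Fibroblast genes summed to 78.2 to 1420 and 182 to 912. Of the 4 neutrophil genes none exceeded 3 counts in any library and S100a8 was at 0, and of the 4 pancreas genes Amy2a5 was at 0.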
